A study of Homo sapiens with 2 samples.

Results

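The 10 genes MICA, MICB, ULBP1, ULBP2, ULBP3, RAET1E, RAET1G, NCR3LG1, PVR and NECTIN2 encode surface proteins through which natural killer cells recognize a target cell. They were taken by name from 20163 protein-coding genes, and for each gene every ATAC-seq peak was collected that came within 3 kb of its TSS, the transcription start site. This gave 20 of 114060 peaks in the DMSO library and 28 of 161184 in the MAK683 library. The libraries came from G401, an established malignant rhabdoid tumor line of the kidney that lacks SMARCB1, a core subunit of the SWI/SNF chromatin remodeler. One culture was given the solvent DMSO and the other 3 μM MAK683, which binds the EED subunit of the histone methyltransferase complex PRC2 and blocks its deposition of H3K27me3, each for 3 days. Neither the labels nor the methods name natural killer cells in these cultures. Each group had 1 library, so the differences given here could not be compared with a spread between replicates, and no test was run.

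Natural killer cells kill a target when activating signals outweigh inhibitory ones. NKG2D, an activating receptor, binds the MIC proteins (MICA, MICB) and the ULBP proteins (ULBP1, ULBP2, ULBP3, and ULBP4 and ULBP5, the products of RAET1E and RAET1G), which are induced on stressed, infected or transformed cells. NKp30 binds B7-H6, the product of NCR3LG1. PVR (CD155) and NECTIN2 (CD112) are adhesion molecules that engage the activating receptor CD226 and the inhibitory receptor TIGIT. ATAC-seq marks DNA that the Tn5 transposase can reach, so a peak at a promoter reports its accessibility and not the amount of RNA or protein.

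The promoter of each gene was read from the GRCh37 genome as 250 bases before the TSS and 50 from it onward. Some of these promoters are shown 5′ to 3′ in the direction of transcription. They are the MIC pair, whose counting intervals lay below 0, the 3 ULBP promoters, and NECTIN2 for comparison. The summits of the tallest peaks of MICB, ULBP1 and NECTIN2 lay outside these bases in both libraries. Those of ULBP2 and ULBP3 did so in MAK683. The motifs therefore need not lie under the peaks whose heights are given. Capitals mark any of 6 motifs, searched on both strands: the GC box GGGCGG, the CCAAT box, the short cAMP-response motif TGACG, the AP-1 motif TGANTCA, the heat shock motif GAANNTTC and the E-box CACGTG.
MICA, chr6:31371122-31371421, plus strand: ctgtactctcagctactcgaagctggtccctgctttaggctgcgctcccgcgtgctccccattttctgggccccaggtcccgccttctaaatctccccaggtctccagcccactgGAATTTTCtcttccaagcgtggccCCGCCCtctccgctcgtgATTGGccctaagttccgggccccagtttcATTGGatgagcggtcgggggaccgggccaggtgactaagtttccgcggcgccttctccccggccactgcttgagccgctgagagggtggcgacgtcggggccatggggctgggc
MICB, chr6:31465672-31465971, plus strand: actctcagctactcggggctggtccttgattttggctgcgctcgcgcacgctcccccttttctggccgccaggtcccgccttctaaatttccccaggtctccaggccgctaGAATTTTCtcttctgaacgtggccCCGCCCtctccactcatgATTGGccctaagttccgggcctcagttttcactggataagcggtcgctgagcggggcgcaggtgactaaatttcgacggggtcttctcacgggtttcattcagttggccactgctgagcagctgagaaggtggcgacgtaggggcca
ULBP1, chr6:150284829-150285128, plus strand: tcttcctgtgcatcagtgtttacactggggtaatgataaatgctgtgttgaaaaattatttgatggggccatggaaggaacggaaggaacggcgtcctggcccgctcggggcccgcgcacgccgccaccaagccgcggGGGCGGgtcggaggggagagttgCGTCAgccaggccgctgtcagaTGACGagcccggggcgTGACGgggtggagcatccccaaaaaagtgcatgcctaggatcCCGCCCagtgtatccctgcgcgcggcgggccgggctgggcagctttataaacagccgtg
ULBP2, chr6:150262900-150263199, plus strand: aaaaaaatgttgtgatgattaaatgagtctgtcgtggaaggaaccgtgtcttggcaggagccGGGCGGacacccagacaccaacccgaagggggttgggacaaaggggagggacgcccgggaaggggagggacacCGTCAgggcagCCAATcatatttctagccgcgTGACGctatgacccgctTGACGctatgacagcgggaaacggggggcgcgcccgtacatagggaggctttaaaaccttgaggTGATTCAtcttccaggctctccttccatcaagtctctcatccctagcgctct
ULBP3, chr6:150390208-150390507, minus strand: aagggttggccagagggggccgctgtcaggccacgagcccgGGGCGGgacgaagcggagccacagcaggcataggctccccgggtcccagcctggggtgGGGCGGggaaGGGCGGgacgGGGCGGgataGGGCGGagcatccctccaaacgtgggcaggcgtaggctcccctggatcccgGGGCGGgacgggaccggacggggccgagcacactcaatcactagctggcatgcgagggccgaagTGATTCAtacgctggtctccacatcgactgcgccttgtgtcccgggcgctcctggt
NECTIN2, chr19:45349304-45349603, plus strand: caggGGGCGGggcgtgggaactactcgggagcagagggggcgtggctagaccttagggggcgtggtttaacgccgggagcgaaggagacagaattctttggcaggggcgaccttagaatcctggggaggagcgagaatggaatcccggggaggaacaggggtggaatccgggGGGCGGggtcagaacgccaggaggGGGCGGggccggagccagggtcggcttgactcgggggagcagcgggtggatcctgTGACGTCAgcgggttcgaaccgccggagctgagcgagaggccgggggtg

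MICA and MICB each held the heat shock letters GAATTTTC, a GC box and at least 1 CCAAT box at similar positions. Their promoters were 77.8% identical, the highest of any pair of members, and no other pair exceeded 52.6%. The heat shock motif was in no other member and in 5.52% of 20140 protein-coding promoters of the same length. ULBP3 held 6 GC boxes, the most of any member. ULBP1 and ULBP2 each held 3 cAMP-response motifs, and NECTIN2 held 2 that overlap in the palindrome TGACGTCA. These motifs were in 3 of 10 members and in 29.1% of all promoters, and GC boxes in 8 of 10 and in 61.0%. The AP-1 motif was in ULBP2 and ULBP3 and in 5.43% of all promoters, the CCAAT box in 5 members and in 36.0%, and the E-box in RAET1E alone and in 8.74%. The promoter of PVR held none of the 6 motifs. Median GC content was 63.7% in the members and in all promoters, with a range of 50.7% at RAET1E to 70.7% at ULBP3.

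Promoter height was the number of tags over the summit of the tallest peak within 3 kb, scaled per 1000000 filtered tags of the library (RPM). Filtered tags numbered 16598348 in DMSO and 18265284 in MAK683, and 1 tag was worth 0.0602 and 0.0547 RPM. Intervals of heights are exact 95% Clopper-Pearson intervals, and those of log2 ratios are exact 95% conditional binomial intervals of the tags. They cover counting error only, not the choice of the tallest position, and the methods name no molecular identifiers, so tags need not be independent molecules, although 1 tag was kept per position. No peak lay within 3 kb of the SMARCB1 TSS or in the rest of that gene in either library, and the promoters of ACTB, GAPDH and EEF1A1, which are active in nearly all cells, had 2.89 to 4.04 RPM in DMSO and 2.35 to 2.52 in MAK683. In a bulk library, fewer cells with an open site and less opening per cell cannot be told apart. With 1 library per group, a difference in quality between the libraries cannot be told apart from an effect of MAK683.

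In DMSO 9 of the 10 genes had a promoter peak, and in MAK683 all 10 had one. Across all protein-coding genes the shares were 72.7% and 78.7%, and 70.9% had one in both libraries, as did 9 members. RAET1E was the gene with a peak in MAK683 alone, which was the case for 7.87% of all protein-coding genes. Its peak had a −log10 q of 3.02, so with a minimum of 5 or of 10 it was lost and 9 members had a MAK683 peak. No member had one in DMSO alone, against 1.84%. A peak covered the TSS itself at the same 7 genes in both libraries, namely MICA, MICB, ULBP2, ULBP3, NCR3LG1, PVR and NECTIN2, against 62.6% of all genes in DMSO and 65.1% in MAK683. The TSSs of ULBP1, RAET1E and RAET1G were not covered in either library.

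Of the 9 genes with a peak in both libraries, 8 were lower in MAK683 and ULBP1 was higher. Among all 14288 protein-coding genes with a peak in both, 86.5% were lower and 13.5% higher. All promoters together thus shifted, and with their median ratio set to 0 ULBP1, ULBP3 and PVR were higher and the other 6 members lower. On the log2 scale the median of the members' ratios, MAK683 over DMSO, was -0.54, with a range of -0.83 to 0.79, beside a median of -0.46 for all these promoters. The counting interval lay below 0 at 2 members, MICA and MICB, against 16.9% of all, and above 0 at none, against 0.819%. The MICA and MICB intervals include the median of all promoters, -0.46. No member reached a 2-fold change, against 1.11% of all promoters that were at least 2-fold higher and 5.89% that were at least 2-fold lower. More peaks in MAK683 than in DMSO were counted at 4 of the 9 genes, against 26.2% of all, and fewer at 3, against 30.1%. The share of members that were lower, 8 of 9, was thus near that of all promoters.

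**Figure D1:**
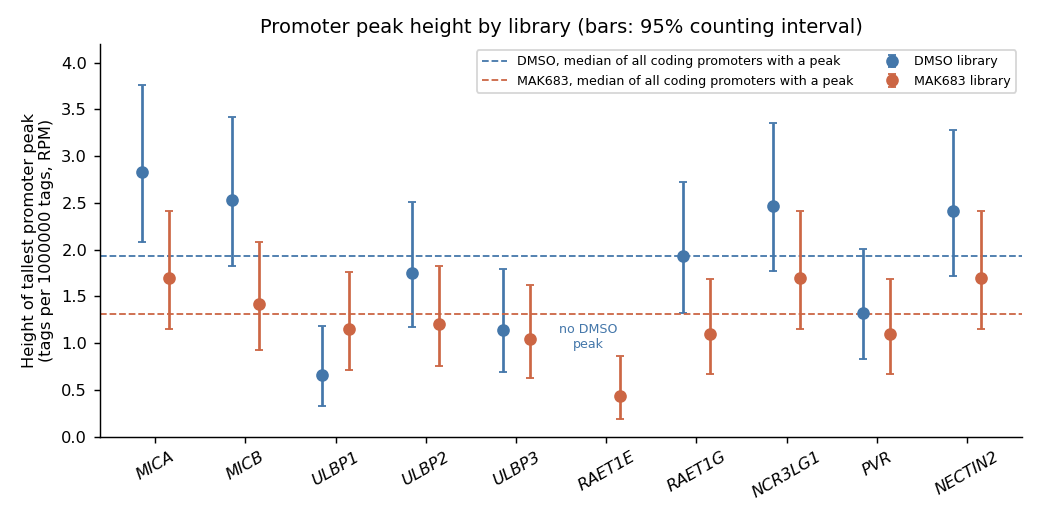
Height of the tallest peak within 3 kb of the TSS (RPM, y axis) for each of the 10 genes in the DMSO (blue) and MAK683 (orange) library. Bars are exact 95% counting intervals and dashed lines are the medians of all protein-coding promoters with a peak, 1.93 RPM in DMSO and 1.31 in MAK683. MICA had 2.83 RPM in DMSO and 1.70 in MAK683, ULBP1 had 0.663 and 1.15, and RAET1E had no DMSO peak.

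The order of heights in DMSO was MICA, MICB, NCR3LG1, NECTIN2, RAET1G, ULBP2, PVR, ULBP3 and ULBP1, and the intervals of all neighbours in this order overlapped. The ends of the order did not overlap: MICA had 2.83 RPM (2.08 to 3.77) and ULBP1 0.663 (0.331 to 1.19). In MAK683 the spread was narrower. MICA, NCR3LG1 and NECTIN2 shared the highest value of 1.70 RPM, RAET1E was lowest at 0.438, and the other 6 lay between 1.04 and 1.42. Among all protein-coding promoters with a peak, MICA stood at percentile 85.6 in DMSO and 73.1 in MAK683, while ULBP1 stood at 7.71 and 40.8.

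**Figure D2:**
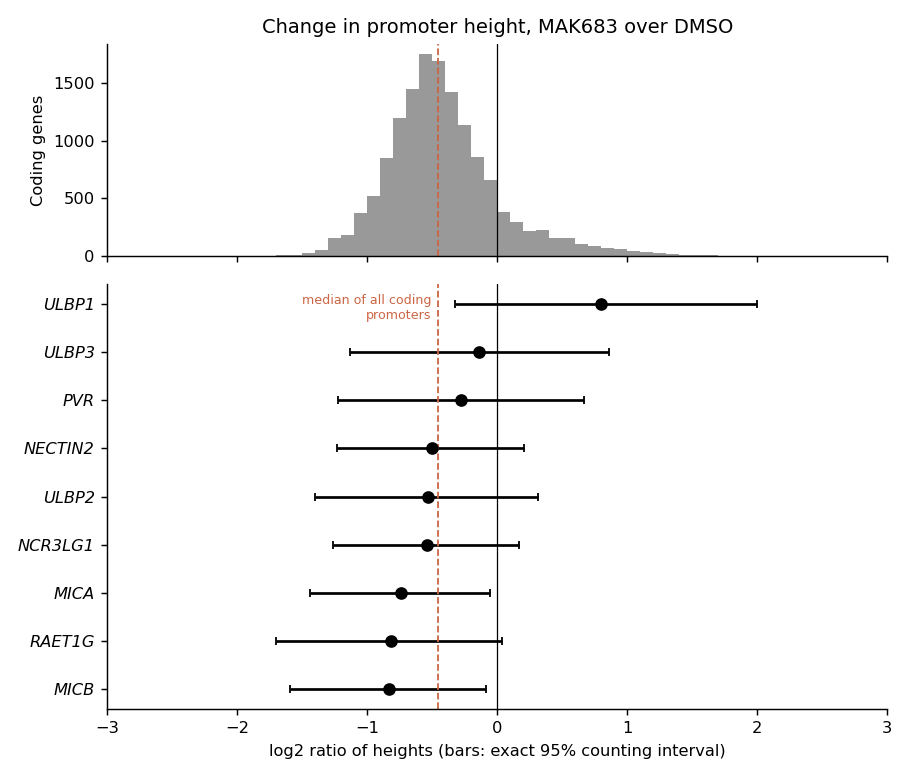
Log2 ratio of promoter height, MAK683 over DMSO (x axis), for all 14288 protein-coding genes with a peak in both libraries (histogram, above) and for the 9 members with one (points with exact 95% counting intervals, below). The dashed line is the median of all promoters, -0.46. ULBP1, at 0.79, lies on the right of 0, and the intervals of MICA and MICB lie below 0 but include that median.

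The MIC genes lie within the major histocompatibility complex and encode NKG2D ligands related to class I molecules. MICA (ENSG00000204520, chromosome 6, 31367561 to 31383092, plus strand) had 47 tags over its summit in DMSO, or 2.83 RPM, and 31 in MAK683, or 1.70 RPM. The log2 ratio was -0.74 (-1.44 to -0.054), at percentile 20.5 of all promoters, and it turned to 0.61 when the tags of all peaks in the window were summed. The summits lay 76 and 85 bp upstream of the TSS at 31371372, in an untranslated region of longer MICA transcripts and an intron of a long noncoding RNA, ENSG00000288587, which starts 2893 bp upstream. A Y_RNA gene starts 1345 bp upstream on the other strand. In DMSO the promoter formed a single peak of 5005 bp at 31367076 to 31372080. In MAK683 the same stretch held 4 peaks with 31, 24, 15 and 9 tags. Peak coverage of the 6 kb window around the TSS was 3709 bp in DMSO and 2969 bp in MAK683. The second MAK683 peak, at 31367117 to 31368561, had its summit 3823 bp upstream of the TSS, close to the start of the longer MICA transcripts at 31367561.

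MICB (ENSG00000204516, chromosome 6, 31462658 to 31478901, plus strand) had 42 tags and 2.53 RPM in DMSO against 26 tags and 1.42 RPM in MAK683. The log2 ratio was -0.83 (-1.59 to -0.091), the lowest of the members and at percentile 13.6 of all promoters. The summits lay 447 and 434 bp upstream of the TSS at 31465922, in an intron of a longer transcript, and a Y_RNA gene starts 1355 bp upstream on the other strand. A further DMSO peak of 23 tags reached into the window from upstream, with its summit 3477 bp from the TSS in an exon of the divergent noncoding gene MICB-DT, and the MAK683 peak there had 21 tags. MICB, like MICA, had more peaks in MAK683, 4 against 2, and less of the window covered, 2646 against 3701 bp. MICA and MICB resemble each other in sequence and are highly polymorphic between people, and whether reads were lost or placed at the other gene was not tested.

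**Figure D3:**
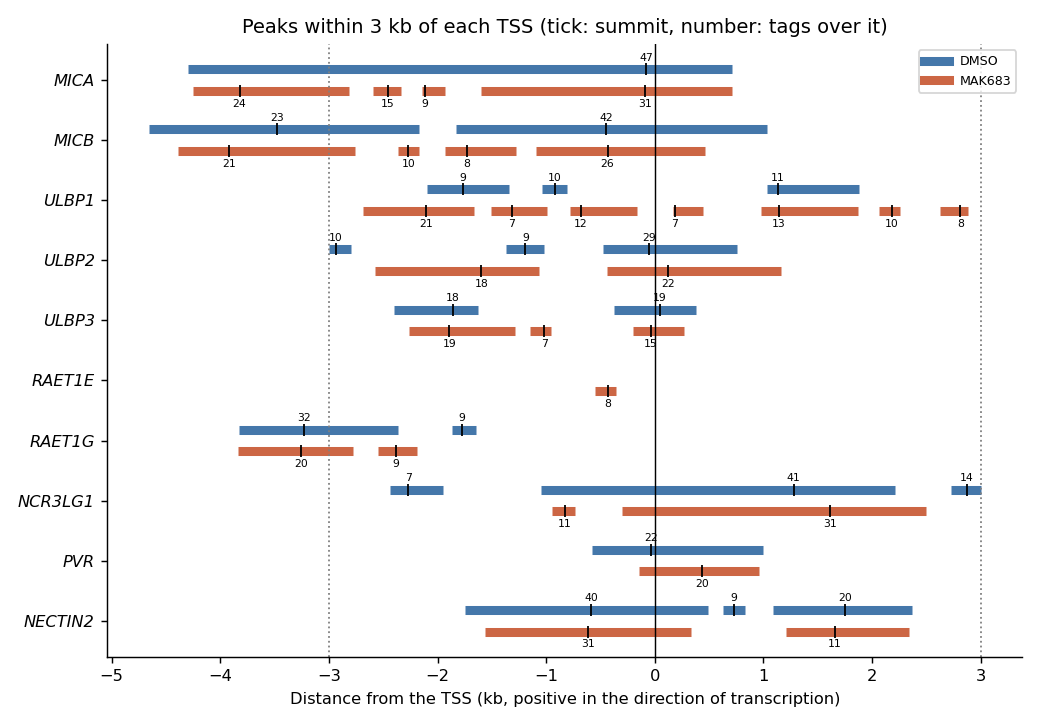
Peaks that come within 3 kb of each TSS (dotted lines), drawn by distance from the TSS in kb, positive in the direction of transcription, for DMSO (blue) and MAK683 (orange). Black ticks are summits, and numbers are tags over them. The 47-tag MICA peak of DMSO faces 4 shorter MAK683 peaks, and ULBP1 has 3 DMSO and 7 MAK683 peaks, none over the TSS.

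The ULBP and RAET1 genes form a cluster of NKG2D ligands on the long arm of chromosome 6. ULBP1 (ENSG00000111981, 150285079 to 150294851, plus strand), which encodes a ligand anchored to the membrane by lipid, was the member with the higher value in MAK683. Its tallest peak had 11 tags and 0.663 RPM in DMSO and 21 tags and 1.15 RPM in MAK683. The log2 ratio was 0.79 (-0.32 to 1.99), at percentile 97.9 of all promoters, and its counting interval includes 0.

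The tallest ULBP1 peaks of the libraries were at different places. The DMSO peak spanned 150286111 to 150286963, and its summit was 1131 bp downstream of the TSS in an intron. The MAK683 peak spanned 150282395 to 150283415, and its summit was 2102 bp upstream, between genes. At the intronic place the libraries had 11 and 13 tags, a log2 ratio of 0.10 (-1.17 to 1.40). At the upstream place they had 9 and 21 tags, a log2 ratio of 1.08 (-0.10 to 2.39). All 3 DMSO peaks were overlapped by a MAK683 peak, and 3 of the 7 MAK683 peaks were overlapped by a DMSO peak. Coverage of the 6 kb window was 1847 bp in DMSO and 3789 bp in MAK683. A 7-tag MAK683 peak had its summit 184 bp downstream of the TSS, in the coding sequence, and the promoter with its 3 cAMP-response motifs shown above had no peak over the TSS.

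ULBP2 (ENSG00000131015, 150263150 to 150270371, plus strand), another ligand of this family, was lower in MAK683. It had 29 tags and 1.75 RPM in DMSO and 22 tags and 1.20 RPM in MAK683, a log2 ratio of -0.54 (-1.41 to 0.31). The DMSO summit lay 54 bp upstream of the TSS and the MAK683 summit 121 bp downstream, in the coding sequence. A MAK683 peak of 18 tags had its summit 1596 bp upstream and overlapped a 9-tag peak of DMSO. A 10-tag DMSO peak with its summit 2937 bp upstream was overlapped by none. Coverage of the window was 1785 bp in DMSO and 3116 bp in MAK683.

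ULBP3 (ENSG00000131019, 150382189 to 150390257, minus strand), another lipid-anchored ligand, had 19 tags in both libraries, 1.14 RPM in DMSO and 1.04 in MAK683. The log2 ratio was -0.14 (-1.14 to 0.86). It had 2 sites of nearly equal height. The peak over the TSS had 19 tags in DMSO and 15 in MAK683, with a log2 ratio of -0.48 (-1.56 to 0.58). The site upstream, with summits 1861 and 1891 bp from the TSS, had 18 and 19, with a log2 ratio of -0.060 (-1.07 to 0.95).

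RAET1E (ENSG00000164520, 150204315 to 150219249, minus strand) had no DMSO peak. Its MAK683 peak, at 150219603 to 150219802, had 8 tags and 0.438 RPM (0.189 to 0.863), and its summit was 434 bp before the TSS, in an intron of the antisense gene RAET1E-AS1. A further protein-coding gene model, ENSG00000285991, starts 2102 bp downstream of the RAET1E TSS on the same strand. The lowest peak listed in either library had 6 tags, so a DMSO signal of fewer than 6 tags would not have been listed. Without a DMSO peak no fold was computed. The sequence under this peak is shown because the peak was found in MAK683 alone, and it holds none of the 6 motifs.
RAET1E peak, chr6:150219603-150219802, minus strand: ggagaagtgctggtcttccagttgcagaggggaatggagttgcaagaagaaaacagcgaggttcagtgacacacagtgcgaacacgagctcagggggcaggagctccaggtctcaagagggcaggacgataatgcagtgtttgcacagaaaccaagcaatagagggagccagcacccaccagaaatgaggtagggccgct

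RAET1G (ENSG00000203722, 150238014 to 150244257, minus strand) had 32 tags and 1.93 RPM in DMSO and 20 tags and 1.09 RPM in MAK683, a log2 ratio of -0.82 (-1.70 to 0.034). These peaks only reached the edge of the window. Their summits lay 3231 and 3257 bp upstream of the TSS, between genes. With summits required to lie in the window, the tallest RAET1G peak had 9 tags in both libraries and the log2 ratio was -0.14. These peaks were at different places that do not overlap, with summits 1772 bp upstream in DMSO and 2386 bp in MAK683. The 9-tag MAK683 peak overlaps the 32-tag DMSO peak instead, so this ratio does not compare the same site.

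The whole ULBP/RAET1 cluster was then viewed, from 10 kb before RAET1E to 10 kb past ULBP3, a stretch of 205.9 kb that includes RAET1L and was chosen after these values were seen. It held 18 peaks in DMSO and 51 in MAK683, a ratio of 2.83, and they covered 11.3 and 31.0 kb. The ratio was 1.37 over 1 Mb on each side, 1.64 on chromosome 6 and 1.41 on the main chromosomes. Of 11773 windows of this length centred on protein-coding TSSs with at least 10 DMSO peaks, 0.883% had a ratio at least as high. Their median ratio was 0.829, and these windows overlap one another. Keeping windows by their number of DMSO peaks favours lower ratios. As the stretch was also chosen after its values were seen, the shares of windows do not measure chance. Many MAK683 peaks were low: 27 of the MAK683 peaks and 1 of the DMSO peaks were under 0.5 RPM. A peak of 9 tags passed this cut in DMSO, at 0.542 RPM, and failed it in MAK683, at 0.493 RPM. The numbers on either side of it thus depend on where the cut falls. At 0.5 RPM or more the numbers were 17 and 24, a ratio of 1.41, which 1.74% of 10417 such windows reached, with a median of 0.667. At 1 RPM or more they were 6 and 8.

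Of all the cluster's peaks, 15 of 18 in DMSO overlapped a MAK683 peak and 14 of 51 in MAK683 overlapped a DMSO peak. The tallest peak of the cluster was not at a member's promoter but between ULBP1 and RAET1L, with 46 tags and 2.77 RPM in DMSO and 24 tags and 1.31 RPM in MAK683. The stretch from 10 kb before MICA to 10 kb past MICB had 15 peaks in DMSO and 12 in MAK683, which covered 16.3 and 9.43 kb. The genes of the ULBP/RAET1 cluster arose by duplication, and whether reads of similar copies were placed at the wrong copy was not tested.

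**Figure D4:**
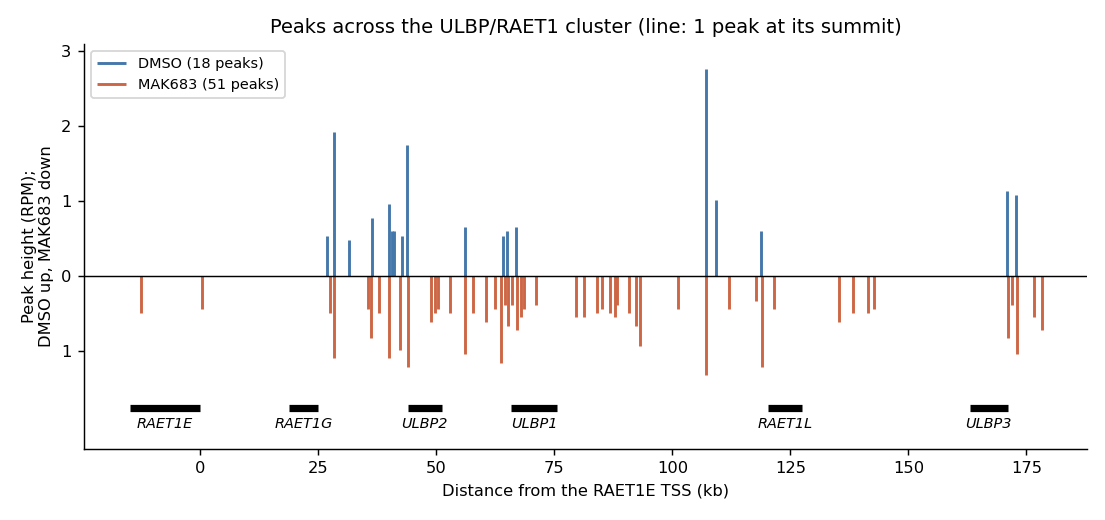
Peaks across the ULBP/RAET1 cluster, with distance from the RAET1E TSS in kb on the x axis and peak height in RPM on the y axis, DMSO upward (18 peaks) and MAK683 downward (51 peaks). Each line is 1 peak at its summit, and black bars are genes. Between the end of ULBP1 and the tallest DMSO peak, MAK683 has many low peaks and DMSO has none. The tallest lines are in DMSO.

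NCR3LG1 (ENSG00000188211, chromosome 11, 17373347 to 17398888, plus strand), which encodes the NKp30 ligand B7-H6, had 41 tags and 2.47 RPM in DMSO and 31 tags and 1.70 RPM in MAK683. The log2 ratio was -0.54 (-1.26 to 0.17). The peak covered the TSS in both libraries, but its summits lay 1278 and 1616 bp downstream, in an intron. A long noncoding gene, ENSG00000285545, starts 97 bp away on the other strand, and accessibility of the promoters cannot be told apart. A DMSO peak of 14 tags, with its summit 2874 bp downstream, and one of 7 tags, 2269 bp upstream, were overlapped by no MAK683 peak.

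PVR (ENSG00000073008, chromosome 19, 45147098 to 45169430, plus strand), which encodes CD155, had 22 tags and 1.33 RPM in DMSO and 20 tags and 1.09 RPM in MAK683, a log2 ratio of -0.28 (-1.23 to 0.67). It had a single peak in each library. Both summits also lay in an intron of CEACAM16-AS1. The DMSO summit lay 32 bp upstream of the TSS at 45147210, in an untranslated region of another PVR transcript, and the MAK683 summit 436 bp downstream in an intron. NECTIN2 (ENSG00000130202, chromosome 19, 45349432 to 45392480, plus strand), which encodes CD112, had 40 tags and 2.41 RPM in DMSO and 31 tags and 1.70 RPM in MAK683, a log2 ratio of -0.51 (-1.23 to 0.21). Its summits lay 583 and 612 bp upstream of the TSS, between genes. A second NECTIN2 peak, in an intron, had 20 tags in DMSO and 11 in MAK683, and a 9-tag DMSO peak 728 bp downstream was overlapped by none. These 3 ligands of NKp30, CD226 and TIGIT were lower in MAK683, though PVR was higher with the median of all promoters set to 0. Their intervals include 0, and they lay between percentiles 40.9 and 70.3 of all promoters.

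Other genes of natural killer cell recognition were taken as a list of 30. A promoter peak was present at 22 in DMSO and 25 in MAK683, against 72.7% and 78.7% of all protein-coding genes, and 22 had one in both, against 70.9%. Of these 22, 21 were lower and 1 was higher, or 12 and 10 with the median of all promoters set to 0, with a median log2 ratio of -0.55 beside -0.46 for all promoters, of which 86.5% were lower. The counting interval lay below 0 at 4 genes, NID1, CHEK1, SP1 and ATF4, against 16.9% of all promoters, and above 0 at none, against 0.819%. All 4 intervals include the median of all promoters. CADM1, a ligand of the receptor CRTAM, was the one that was higher, with 22 tags in DMSO and 34 in MAK683 and a log2 ratio of 0.49 (-0.33 to 1.33), and it is named after its value was seen.

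The 3 genes of this list with a peak in MAK683 alone, against 7.87% of all genes, were CLEC2B, whose product binds NKp80, with 11 tags, CD48, a ligand of the receptor 2B4, with 10, and NECTIN3, a nectin that binds PVR, with 9. RAET1L, which encodes ULBP6, had no promoter peak in either library, nor had SLAMF6, SLAMF7, CLEC2D and NECTIN4. The log2 ratios farthest from 0 were those of ICAM1, the adhesion ligand of LFA-1, of CHEK1, a DNA damage checkpoint kinase, and of ATF4, a stress response transcription factor. ICAM1 had 20 tags in DMSO and 11 in MAK683, a log2 ratio of -1.001 (-2.21 to 0.13). It was the only 1 of the 22 genes with a peak in both that was at least 2-fold lower, against 5.89% of all promoters. CHEK1 had 60 and 35 tags and a ratio of -0.92 (-1.56 to -0.29), and ATF4 had 36 and 22 and a ratio of -0.85 (-1.68 to -0.044). All 11 genes for shedding and regulation of the ligands had a peak in both libraries, as did 70.9% of all genes, and were lower, as were 86.5% of all promoters, or 6 of them with the median of all promoters set to 0. The same held for all 3 with a peak in both among the inhibitory ligands and other nectins, or 1 of them with that median at 0.

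**Figure D5:**
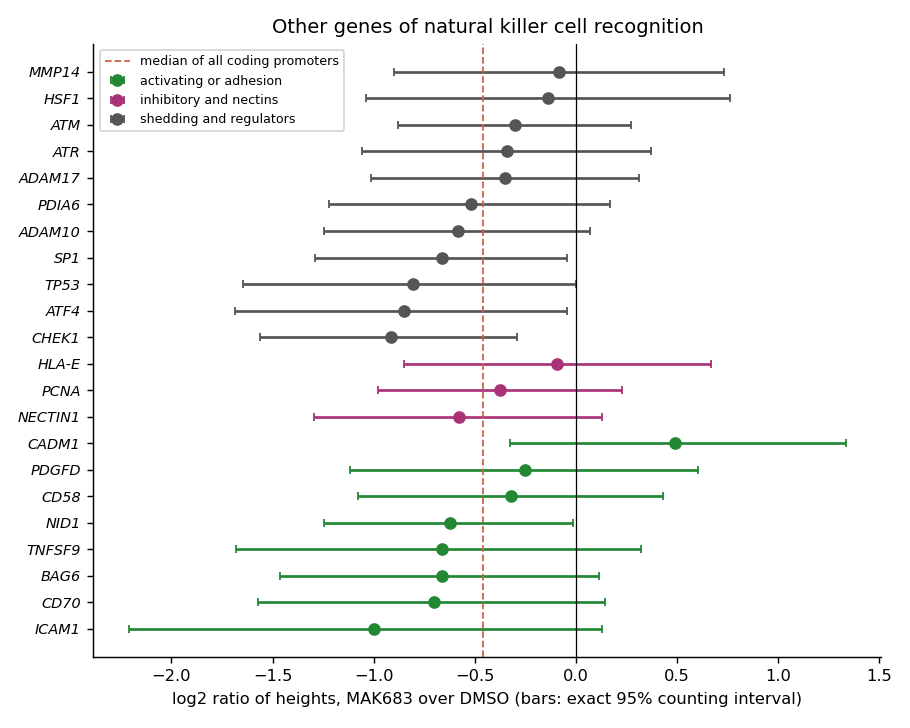
Log2 ratio of promoter height, MAK683 over DMSO (x axis), with exact 95% counting intervals for the 22 further genes with a peak in both libraries, coloured by role. The dashed line is the median of all protein-coding promoters, -0.46. CADM1 lies on the right of 0 at 0.49 and ICAM1 is farthest to the left at -1.001.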

How the data were processed

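The data were 2 lists of ATAC-seq peaks from G401 cells, 1 library per group. The authors used Trim-galore for trimming and Bowtie2 for alignment to hg19. The deposited files name MACS 2.1.1.20160309 as the caller, run separately on each library (shift -100, extension 200, 1 tag kept per position, no control, local background off, q cutoff 0.05). The methods and the submitters' processing notes name other MACS versions. The pileup signal deposited is in whole tags and carries no depth scaling. Fold enrichment, also deposited, is a ratio over the genome-wide background. The deposited −log10 p and −log10 q values depend on depth, and the q values were used only as a filter.

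Genes and TSSs came from GENCODE 44 lifted to GRCh37, the build of the files, with 1 TSS per gene (Ensembl canonical, otherwise the longest basic or longest transcript). The members and lists were chosen with earlier results of these data known. Named were all members, their neighbours within 3 kb and, of the wider list, the genes with a peak in 1 library only and the 3 largest changes. CADM1 and the other genes named from that list were added after their values were seen. Alternatives were −log10 q minimums of 5 and 10, windows of 1 and 10 kb, all basic TSSs, other scalings and heights, and summits inside the window. Interval code was tested on simulated data. Python 3.11.15, numpy 2.4.6, pandas 2.3.3, scipy 1.17.1 and Biopython 1.88 were used.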

Additional observations from a re-analysis of the deposited data

How the results depend on the processing

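With 1 library per group no library could be left out. No paired analysis was possible because each group had 1 library and the labels give no replicate numbers. Over 13 settings, 42 of 46 values on the members as a list and 96 of 97 ratios of single members were called stable. Stable meant inside the interval or, for counts, changed by less than 1.5 times. Much of this was fixed in advance. The q minimums, the 10 kb window and all basic TSSs left every single ratio they gave unchanged. Each change of scaling moved all single ratios by the same amount. The intervals are wide, so a ratio could cross 0 and still be called stable. For the median, the interval was taken from ranked ratios of the members, from -0.82 to -0.14. It gives the spread between members, which are not replicates, and holds no error of the treatment comparison. Some single ratios crossed 0: with the median of coding promoters set to 0 ULBP3 was 0.32 and PVR 0.18, and ULBP3 was 0.010 with all peaks summed. The number of members higher in MAK683, 1 as reported, was 0 with a −log10 q of at least 10, because ULBP1 then had no DMSO peak, and 3 with the median of coding promoters set to 0 and with all peaks of the window summed. The median log2 ratio was -0.077 with the median of coding promoters set to 0, by construction, -0.28 with all peaks of the window summed, and -0.51 and -0.52 without MICA and MICB or without RAET1G, settings chosen after seeing the data. MICA turned from -0.74 to 0.61 when all peaks in the window were summed, since 1 long DMSO peak then faced 4 shorter MAK683 peaks, each with its own summit. The ULBP1 ratio was above 0 under all 10 settings that gave one, from 0.24 to 1.25, and was lowest with a 1 kb window. Apart from the sum of all peaks, these ratios do not compare the same site. With the 1 kb window, a 10-tag DMSO peak 918 bp upstream faced a 13-tag MAK683 peak 1144 bp downstream. At the same place the ratios were 0.10 (-1.17 to 1.40) in the intron and 1.08 (-0.10 to 2.39) upstream. Tag numbers of 8 to 47 per summit limit what these libraries can show about a single promoter.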
